A study of Drosophila melanogaster with 12 samples.

Results

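Translation factors and aminoacyl-tRNA synthetases were examined in adult *Drosophila melanogaster* females reared on 4 isocaloric diets. The members were all transcripts of the deposited table whose name begins with Aats-, eIF, eRF, Ef1 or EF2, or has the form of a 3-letter amino acid code followed by RS. This gave 54 of the 15448 transcripts, with 1 transcript per gene. They comprised 14 cytosolic and 7 mitochondrial synthetases, 27 initiation factors (8 of eIF2 and eIF2B, 5 of eIF3, 10 of eIF4 and 4 others), 5 elongation factors and 1 release factor. The names are those of the table, of which 50 have since been replaced, and current symbols are given where they help. The flies came from one outbred laboratory population that is otherwise kept at a protein-to-carbohydrate (P:C) ratio of 0.4. They were raised on food whose P:C ratio was 0.25, 0.55 or 0.7, or on the control food at 0.4, in which sugar and yeast were exchanged at equal calories. Whole females were frozen on day 13 after egg collection, and 3 pools of 12 flies were made per diet, which gives 12 samples of polyadenylated RNA.

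As background, protein synthesis uses these members in order. A synthetase loads each tRNA with its amino acid, in the cytosol or, with a separate set of enzymes, in the mitochondrion. Initiation factor eIF2 brings the initiator tRNA to the small ribosomal subunit and is recharged by the exchange factor eIF2B, eIF3 holds the initiation complex together, and the eIF4 group binds the mRNA cap and unwinds the leader. Elongation factor eEF1 (Ef1alpha and its exchange subunits) delivers loaded tRNAs, eEF2 (EF2) moves the ribosome along, and eRF1 reads the stop codon. Amino acid supply acts on this machinery mainly through the kinases Tor and Gcn2, much of it by phosphorylation, which RNA counts do not show. In an egg-laying female the ovary holds a large share of the RNA, and in a whole fly fewer cells of a type cannot be told apart from less RNA per cell.

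Between 6094226 and 13245114 reads were counted per sample. Values are given as CPM, each count relative to a library size that was scaled by the trimmed mean of M values (TMM), and 3 counts of a sample's own total were 0.226 to 0.492 CPM before this scaling, a limit that covers counting error only. As a check that the flies were female, 11 transcripts of male tissues were summed, and they reached at most 0.642 CPM in 11 samples. In replicate 3 of the 0.55 diet they summed to 8.78 CPM. The source of these counts was not tested, and slope counts are also given without this sample where they differ. The diets also differed in tissue markers. The 15 muscle markers summed to 8268 to 10355 CPM at 0.25, 4414 to 5479 at 0.4, 4151 to 5902 at 0.55 and 3105 to 3735 at 0.7, and all 15 fell with the P:C ratio. All 6 neuronal markers fell as well. Of 16 germline and ovary markers 12 rose, and their sum was 5235 to 6162 CPM at 0.7 and 3726 to 4514 CPM at 0.25. Of 15 eggshell and 3 yolk markers 0 passed the slope test. The eggshell sum varied widely within a diet, with 11666 to 18978 CPM at 0.25, so that small changes would be missed. Of 10 gut markers 3 rose and 3 fell, and their sum was 6747 to 7865 CPM at 0.7 and 8292 to 10741 CPM at 0.25, and of 3 fat body markers 1 rose and 1 fell. The part of these tissue differences in the results below was not tested.

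Across the 4 diets the messages of the translation machinery varied little. Of the 54 members 49 passed the low-count filter of edgeR and were tested, and the 5 that did not are all eIF4E paralogs. The ratio of the highest to the lowest diet mean had a median of 1.12 over the 49, against 1.3 over all 9928 tested transcripts, and it stayed under 1.2 for 38 of 49 members (77.6%) against 33.3% of all tested transcripts. The members were also the better counted transcripts, with a median of 183 CPM against 34.6 CPM, and better counted transcripts have smaller counting error. Summed over all 54, the samples held 30170.2 to 32215 CPM at 0.25, 30899.6 to 31899 at 0.4, 30359 to 33249.9 at 0.55 and 29432 to 32198 at 0.7, so that the diets overlapped.

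Each diet was compared with the control, and the ends of the series with each other, by edgeR's quasi-likelihood test on the 6 samples concerned. A transcript was called when its Benjamini-Hochberg adjusted p over all tested transcripts was below 0.05 and its change exceeded 1.5-fold. Between the 0.25 diet and the control, 1 of 49 members was called, the elongation factor Ef1alpha100E, which was higher, against 0.636% of all tested transcripts. Between the 0.55 diet and the control 0 members were called, against 0.0415% of all tested transcripts, and 1 member had an unadjusted p under 0.05. Between the 0.7 diet and the control 0 were called, against 4.4%, and 6 had an unadjusted p under 0.05. DESeq2 also called 0 members in the last 2 comparisons. Between the 0.7 and the 0.25 diet 1 member was called, again Ef1alpha100E, which was lower, against 19.3% of all tested transcripts. Without a fold-change minimum, 7 members were higher and 2 lower at 0.7 than at 0.25, where 15.8% and 22.8% of all tested transcripts were higher and lower. The 7 were the synthetases Aats-arg, Aats-gln, Aats-his, Aats-lys, Aats-met and Aats-ser and the cap-binding protein eIF-4E, and the 2 were Ef1alpha100E and the synthetase Aats-phe. Of these 9, Ef1alpha100E kept an adjusted p under 0.05 in all 6 fits that left out one sample, and each of the other 8 lost it in 4 or 5 of them. Without overlap between samples of these diets were 21 members that were higher and 3 that were lower at 0.7, against 29.6% and 26.4% of all tested transcripts.

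The intervals of these differences were narrow. For 46 of 49 members the 95% interval of the fold change of 0.7 over 0.25 lay within 1.5-fold in both directions, which held for 47.0% of all tested transcripts. The 3 others were Ef1alpha100E, with an interval of 0.377 to 0.554, Aats-met, with 1.12 to 1.64, and Aats-pro, with 0.980 to 1.71. These 3 were named after their values were seen. Better counted transcripts have narrower intervals, and the tested members had a median of 183 CPM against 34.6 CPM over all tested transcripts.

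In one fit of the P:C ratio, taken as a number, to all 12 samples, 9 of 49 members rose and 2 fell at an adjusted p under 0.05, against 17.1% and 19.6% of all tested transcripts. Slopes are in log2 units for each whole unit of P:C ratio, and the diets span 0.45 of such a unit. Of the rising members 5 were cytosolic synthetases (Aats-his, Aats-gln, Aats-lys, Aats-arg and Aats-glupro), 1 was the mitochondrial synthetase Aats-met, and 3 were initiation factors (eIF-2alpha, eIF-4E and eIF5). Each rose by 11.7% to 34.7% over the whole range. The median slope was 0.18 over the members and 0.05 over all tested transcripts. Of the members 37 of 49 had an estimate above 0, and of all tested transcripts 5143 of 9928. The share of members that rose is thus near the share of all tested transcripts, 9 of 49 being 18.4%, and 2 of 49 is below the share that fell. The count of 9 depends on single samples. It was 2 without replicate 1 of the 0.25 diet and 2 without replicate 2 of the 0.7 diet. It was 3 without replicate 3 of the 0.25 diet and 5 without replicate 1 or replicate 3 of the 0.7 diet. For these fits the share of all tested transcripts was not computed. Whether the members lost more calls than other transcripts was thus not tested. Without replicate 3 of the 0.55 diet, the sample with male transcripts, the count was 7, against 14.4% of all tested transcripts. The number that fell was 2 in all 12 fits without one sample. With scaling by library size alone, which moved the median slope of all transcripts by 0.15, 15 members rose and 1 fell, against 22.1% and 18.4% of all tested transcripts. Under this scaling 44 of 49 estimates lay above 0, and the median slope of all tested transcripts was 0.19.

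**Figure D1:**
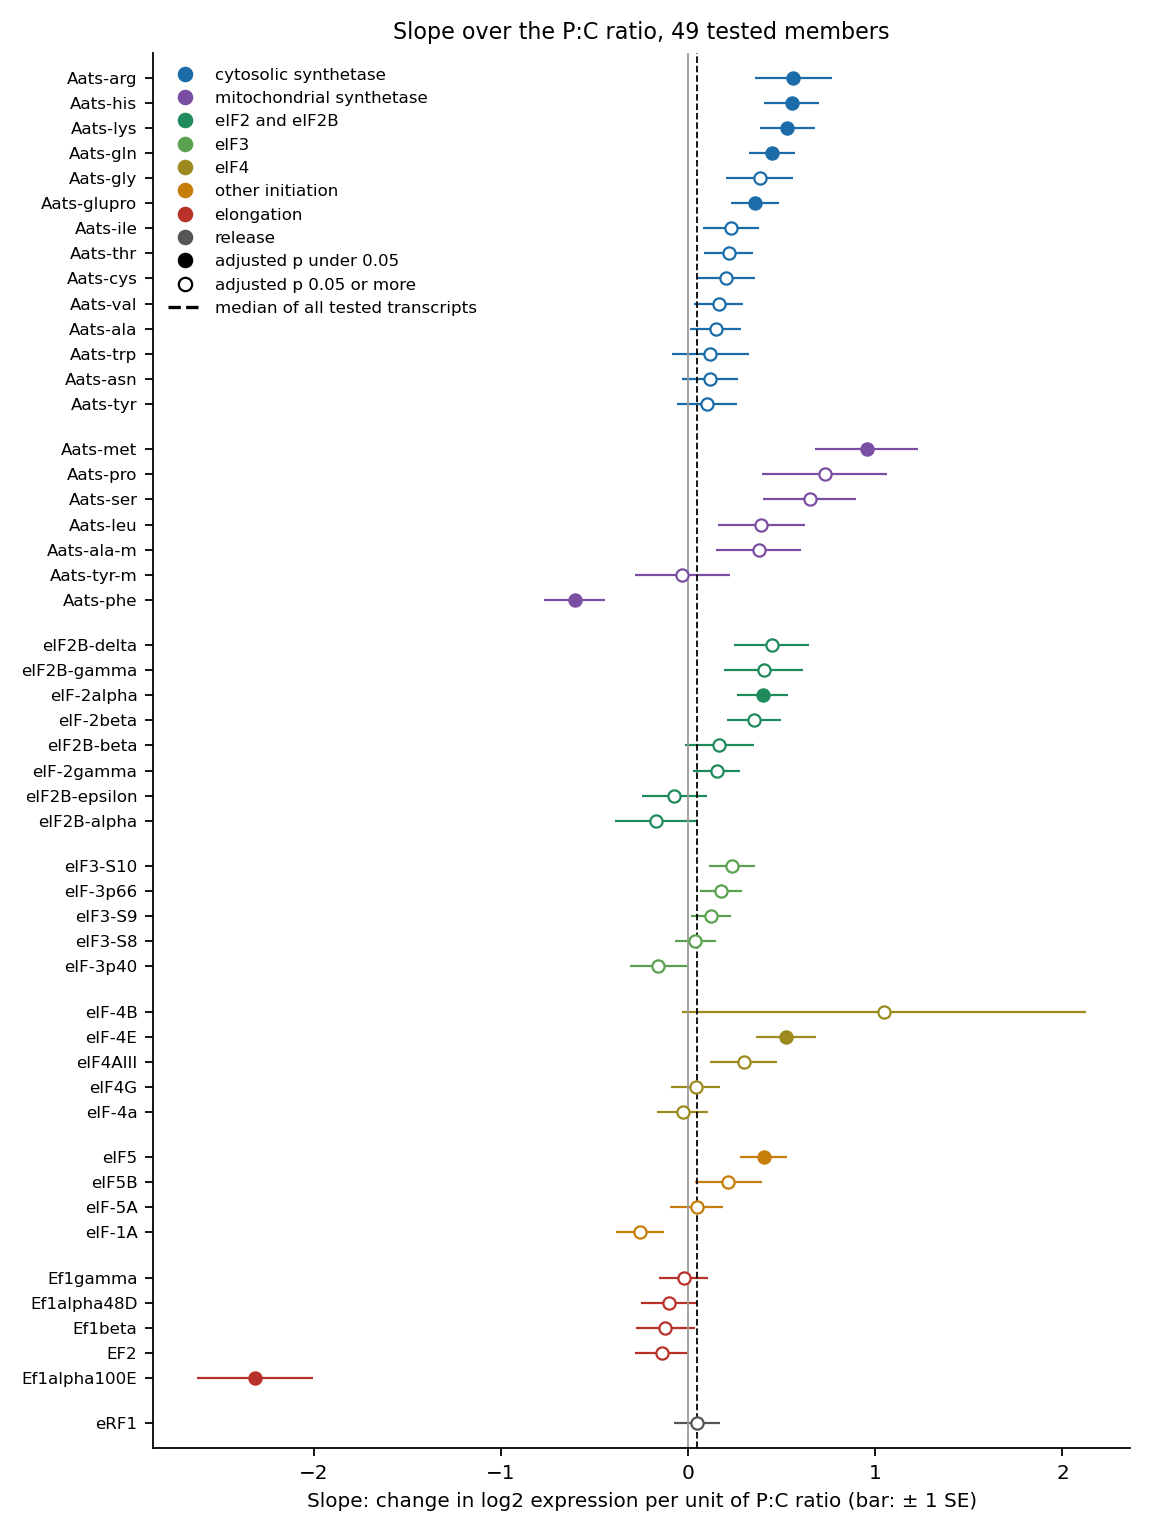
Slope of each of the 49 tested members over the P:C ratio (x axis, log2 units for each unit of P:C ratio, with 1 SE), grouped by subgroup, with filled points for an adjusted p under 0.05. The 14 cytosolic synthetases all lie above 0, and Ef1alpha100E at -2.31 lies apart from the other elongation factors.

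The cytosolic synthetases were lowest at the lowest P:C ratio, by small amounts. All 14 had a slope estimate above 0, with a median of 0.22 and a range of 0.10 to 0.56, and they were above 0 for all 14 with TMM, with DESeq2's size factors and with library size alone. Along the diets 5 of the 14 (35.7%) rose and 0 fell by edgeR, against 17.1% and 19.6% of all tested transcripts. DESeq2 gave the same counts, and its share of all tested transcripts was not computed. The number that rose was 3 with DESeq2's size factors in edgeR, against 13.8% of all tested transcripts, and 6 with library size alone, against 22.1%. Without replicate 3 of the 0.55 diet it was 3 (21.4%), against 14.4% of all tested transcripts, and Aats-arg and Aats-glupro had adjusted p of 0.0589 and 0.0574. Their diet mean was lowest at 0.25 for 13 of 14 members, against 37.0% of all tested transcripts. It was highest at 0.55 for 9 of 14 (10 of 14 without the sample with male transcripts), against 15.1% of all tested transcripts with all samples. Summed over the 14, the samples held 1939 to 2031 CPM at 0.25, 2127 to 2176 at 0.4, 2148 to 2262 at 0.55 and 2179 to 2194 at 0.7. The 3 samples of the 0.25 diet lay below all 9 others. Those of the 0.7 diet lay above those of the 0.4 diet, and the 0.55 diet overlapped both. None of the 14 passed the test of edgeR or DESeq2 in the 3 comparisons with the control diet, and 1 of them, the glycyl enzyme Aats-gly, had an unadjusted p under 0.05 at 0.25 against 0.4, with a log2 fold change of -0.21 (adjusted p = 0.223).

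Aats-his (HisRS), which loads histidine and lies on chromosome X from 18515428 to 18572809 on the forward strand (BDGP6), had the smallest slope p of the group. It had 172, 197 and 184 CPM at 0.25, 193, 209 and 204 at 0.4, 195, 218 and 194 at 0.55 and 221, 221 and 227 at 0.7. All samples at 0.7 lay above all samples of the other diets, and the 0.4 and 0.55 diets overlapped. The slope was 0.55 (SE 0.15, adjusted p = 0.0129), and without replicate 1 of the 0.25 diet the adjusted p was 0.0693. Aats-gln, which loads glutamine, had 115, 122 and 110.0 CPM at 0.25, 125, 123 and 131 at 0.4, 130.0, 129 and 125 at 0.55 and 135, 133 and 137 at 0.7. Its samples at 0.7 again lay above all 9 others, with a slope of 0.45 (SE 0.12, adjusted p = 0.015). Aats-lys, the lysyl enzyme, had 168, 176 and 157 CPM at 0.25, 172, 187 and 190.3 at 0.4, 172, 187 and 186 at 0.55 and 209.6, 203 and 191 at 0.7. Here the samples at 0.7 lay above all others and those of the 3 other diets overlapped, with a slope of 0.53 (SE 0.15, adjusted p = 0.0159). The slope of Aats-gln lost its call without replicate 1 or 3 of the 0.25 diet (adjusted p 0.0671 and 0.0531). That of Aats-lys lost it without either of these or without replicate 1 or 2 of the 0.7 diet, with adjusted p of at most 0.0605.

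The other 2 rising enzymes, named because they were called and not by the rule for named members, were the arginyl enzyme Aats-arg, with 66.2 ± 3.7, 77 ± 8.61, 80.5 ± 6.0 and 79.3 ± 3.26 CPM (SD, n = 3) in order of rising P:C ratio, and the bifunctional glutamyl-prolyl enzyme Aats-glupro, with 207 ± 10.4, 223 ± 6.79, 234 ± 3.12 and 230.2 ± 3.32 CPM (SD, n = 3). Both had higher means at 0.4, 0.55 and 0.7 than at 0.25, and the upper 3 diets differed by less than 1 SD of the 0.4 diet for Aats-arg. Their slopes were 0.56 (SE 0.20, adjusted p = 0.0447) and 0.36 (SE 0.13, adjusted p = 0.0435). These 2 calls were held least often among the 11, since Aats-arg kept an adjusted p under 0.05 in 4 of 12 fits without one sample and Aats-glupro in 1 of 12. The remaining 9 enzymes had slopes of 0.10 to 0.38 and adjusted p of 0.101 or more. Among them Aats-trp, the tryptophanyl enzyme, had diet means of 56.3 to 58.5 CPM that differed by less than the SD of the 0.25 diet.

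**Figure D2:**
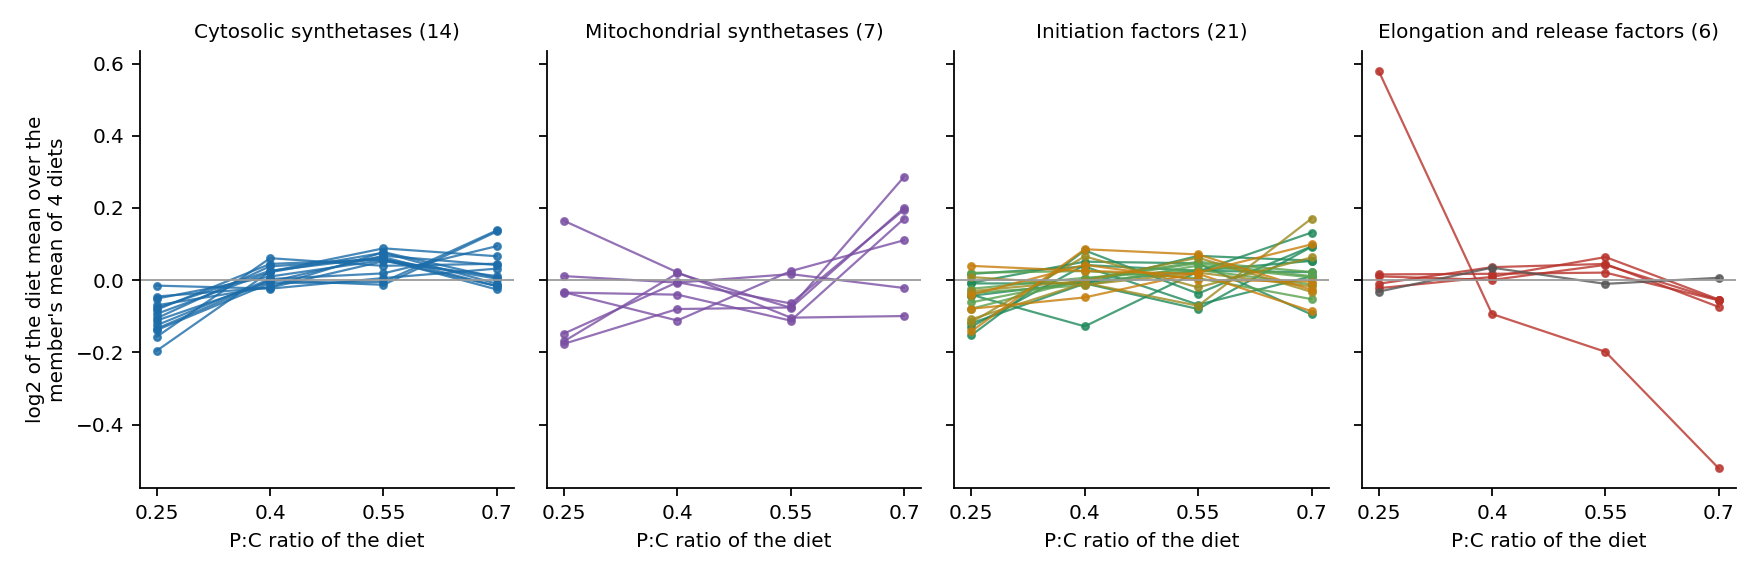
Diet means of each tested member relative to its own mean over the 4 diets (y axis, log2), drawn as one line per member in 4 panels, without eIF-4B. The cytosolic synthetases are lowest at 0.25 for 13 of 14 members (37.0% of all tested transcripts). The mitochondrial ones are highest at 0.7 for 5 of 7 (40.3% of all tested transcripts). Ef1alpha100E is the line that falls furthest from 0.25 to 0.7.

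The 7 mitochondrial synthetases, which are encoded in the nucleus and load the tRNAs of the mitochondrion, took 0.576% of the summed CPM of the members, and single enzymes moved in both directions. Their diet mean was highest at 0.7 for 5 of 7, against 40.3% of all tested transcripts. Summed they held 175 to 182 CPM at 0.25, 171 to 185 at 0.4, 164 to 181 at 0.55 and 187 to 204 at 0.7. The samples at 0.7 lay above all others. Along the diets 1 member (14.3%) rose and 1 (14.3%) fell, against 17.1% and 19.6% of all tested transcripts. Aats-met (MetRS-m), on chromosome 3R from 14249043 to 14259991 on the reverse strand, had 15.1, 13.4 and 15.6 CPM at 0.25, 17, 16.3 and 13.9 at 0.4, 17.9, 14.7 and 14.7 at 0.55 and 20.6, 21.5 and 18.6 at 0.7. Its samples at 0.7 lay above all others while the 3 lower diets overlapped. The slope was 0.95 (SE 0.28, adjusted p = 0.0184), and the adjusted p was 0.0565 and 0.0823 without replicate 1 and replicate 2 of the 0.7 diet.

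Aats-phe (PheRS-m), on chromosome 2R from 13968308 to 13969902 on the forward strand, went the other way. It had 40.8, 37.5 and 41.3 CPM at 0.25, 35.6, 36 and 36.7 at 0.4, 34.3, 31.3 and 33.7 at 0.55 and 31.9, 33.7 and 34 at 0.7. The 0.25 samples lay above all 9 others, and the 0.55 and 0.7 diets overlapped. The slope was -0.60 (SE 0.16, adjusted p = 0.0136), with an adjusted p under 0.05 in all 12 fits that left out one sample, and of 0.0657 with scaling by library size alone. At 0.7 against 0.25 the log2 fold change was -0.28 (SE 0.09, adjusted p = 0.0337). Aats-ser (SerRS-m) had 30.2 ± 1.75 CPM at 0.7 and 23.8 ± 1.82 CPM at 0.25 (SD, n = 3), and a log2 fold change of 0.32 (SE 0.10, adjusted p = 0.0428) between them, while its slope of 0.65 (adjusted p = 0.0527) missed the threshold. The whole of its span is covered on the opposite strand by CG6218-RA, at a mean of 32.0 CPM, and the sources used here do not state whether counting used the strand. Aats-pro (ProRS-m), with the fewest counts of the 7, 54 to 176 per sample, had a slope of 0.73 (adjusted p = 0.0962).

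For 2 amino acids both the cytosolic and the mitochondrial enzyme carry the same name, so that the pairs can be set side by side. The log2 ratio of Aats-ala-m to Aats-ala had a slope of 0.23 (two-sided permutation test over the 12 samples, p = 0.45, adjusted p = 0.54), and that of Aats-tyr-m to Aats-tyr had a slope of -0.15 (permutation test, p = 0.54, adjusted p = 0.54), with p adjusted over the 3 pairs that were compared. Aats-ala was 6.18 to 6.47 times Aats-ala-m in CPM at 0.7 and 6.07 to 7.18 times at 0.25. Aats-tyr was 5.41 to 6.32 times Aats-tyr-m at 0.7 and 5.30 to 5.88 times at 0.25, so that both ratios overlapped between the end diets.

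Among the initiation factors, 3 of 22 tested members (13.6%) rose along the diets and 0 fell, against 17.1% and 19.6% of all tested transcripts, with 1 in eIF2, 1 in the eIF4 group and 1 among the others. In eIF2 and eIF2B, 6 of 8 estimates lay above 0 and the median slope was 0.26. The called member was eIF-2alpha, the subunit whose phosphorylation by Gcn2 and other kinases lowers initiation. It had 128, 133 and 137 CPM at 0.25, 137, 153 and 140.5 at 0.4, 154, 154 and 145 at 0.55 and 146, 149.7 and 154 at 0.7. Its 0.25 samples reached into the range of the 0.4 diet, and lay below all samples at 0.55 and 0.7. The slope was 0.40 (SE 0.14, adjusted p = 0.0356) and kept an adjusted p under 0.05 in 5 of 12 fits without one sample. On the opposite strand rngo-RA covers 10.6% of the span of eIF-2alpha. That transcript had a mean of 107 CPM and an edgeR slope of 0.37 (adjusted p = 0.0519), and reads may be shared. The other 2 subunits, eIF-2beta and eIF-2gamma, had slopes of 0.35 (adjusted p = 0.0693) and 0.15 (adjusted p = 0.336). Of the exchange factor eIF2B, the delta subunit had the slope with the smallest p, 0.45 (adjusted p = 0.0874), and the alpha and epsilon subunits had estimates below 0 of -0.17 (adjusted p = 0.552) and -0.07 (adjusted p = 0.751). The summed level of the 8 was 916 to 947 CPM at 0.7 and 839 to 876 CPM at 0.25, without overlap.

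The 5 eIF3 subunits, which hold the initiation complex on the small subunit, varied least among the subgroups with more than 1 member, with a median ratio of highest to lowest diet mean of 1.06. By edgeR 0 of the 5 were called and 0 had an unadjusted p under 0.05 in the slope or in a pair of diets, and DESeq2 called 0 of them as well. With scaling by library size alone 2 of the 5 rose, against 22.1% of all tested transcripts. eIF3-S10 had 569 ± 16.7, 602 ± 6.68, 623 ± 7.59 and 611 ± 31.9 CPM (SD, n = 3) in order of rising P:C ratio. eIF-3p40 had 251 ± 10.3, 252 ± 18.8, 249 ± 14.4 and 239 ± 14 CPM (SD, n = 3), with neighbouring diets closer than the SD of the higher diet. Their slopes were 0.24 (adjusted p = 0.135) and -0.16 (adjusted p = 0.409), and those of eIF-3p66 and eIF3-S9 were 0.18 (adjusted p = 0.218) and 0.12 (adjusted p = 0.377).

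In the eIF4 group the cap-binding protein eIF-4E (eIF4E1), on chromosome 3L from 9399618 to 9402460 on the reverse strand, had 409, 445 and 416 CPM at 0.25, 442, 473 and 448 at 0.4, 438, 408 and 458 at 0.55 and 501, 534 and 507 at 0.7. All samples at 0.7 lay above all samples of the other diets, while the 3 lower diets overlapped. The slope was 0.52 (SE 0.16, adjusted p = 0.0242) and the log2 fold change of 0.7 over 0.25 was 0.26 (SE 0.07, adjusted p = 0.0198). The slope lost its call without replicate 1 or 3 of the 0.25 diet or any of the 3 replicates of the 0.7 diet, with adjusted p of 0.0545 to 0.0983. Of its partners in the cap-binding complex, the scaffold eIF4G had a slope of 0.04 (adjusted p = 0.823) and the helicase eIF-4a one of -0.03 (adjusted p = 0.876), and for eIF-4a the 0.7 and 0.25 diets had 1664 ± 69.6 and 1694 ± 80.4 CPM (SD, n = 3). Whether the members of the complex differ in slope was not tested. eIF4AIII, a helicase of the exon junction complex that carries an eIF4 name, had a slope of 0.30 (adjusted p = 0.196).

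eIF-4B, the helicase cofactor, had the lowest mean of the tested members, 5.70 CPM. It had 94 and 61 counts in replicates 2 and 3 of the 0.55 diet, which are 14.7 and 9.74 CPM, and 23 to 75 counts or 3.6 to 5.35 CPM in the other 10 samples. At 0.55 against 0.4 the log2 fold change was 1.17 (SE 0.37, adjusted p = 1). Replicate 1 of the 0.55 diet had 4.79 CPM and lay near the control samples. Replicate 3 is the sample with male transcripts, and without it the 0.55 diet has 1 high and 1 low sample.

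The 5 untested members were eIF4E-3, eIF4E-4, eIF4E-5, eIF4E-6 and eIF4E-7, paralogs of the cap-binding protein, of which eIF4E-3 is known in flies for its role in spermatogenesis. In all 100763928 counts of the 12 samples they had 0, 2, 4, 15 and 0 counts. A count of 0 over all samples allows up to 0.0298 CPM, for counting error only. Both counts of eIF4E-4 and 2 of the 4 counts of eIF4E-5 came from the 0.55 sample with male transcripts. Among factors with other names in the table, eIF3d2 and eIF3g2 had 0 counts, and eIF4H2 and eIF3f2 had 2 each, both of eIF3f2 in the same sample. Of the 6 members named for eIF4E, 1 was thus detected at a mean above 1 CPM.

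Of the 4 other initiation factors, eIF5, the activator of GTP hydrolysis by eIF2, had 362, 325 and 358 CPM at 0.25, 364, 361 and 343 at 0.4, 370.4, 383 and 367 at 0.55 and 383, 409 and 391 at 0.7. The samples at 0.7 lay above all others, and the slope was 0.40 (SE 0.12, adjusted p = 0.0235), with adjusted p of 0.0608 without replicate 2 of the 0.25 diet and 0.0879 without replicate 2 of the 0.7 diet. eIF5B, which joins the ribosomal subunits, followed another course, with 245 ± 12, 287 ± 12.7, 284 ± 3.52 and 266 ± 3.28 CPM (SD, n = 3) in order of rising P:C ratio. At 0.25 against 0.4 its log2 fold change was -0.22 (SE 0.07, adjusted p = 0.181). eIF-1A, which scans with the small subunit, had an estimate below 0, -0.26 (adjusted p = 0.127), which DESeq2 called as a fall (adjusted p = 0.0423), and eIF-5A, now named as an elongation factor, had 0.05 (adjusted p = 0.813).

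**Figure D3:**
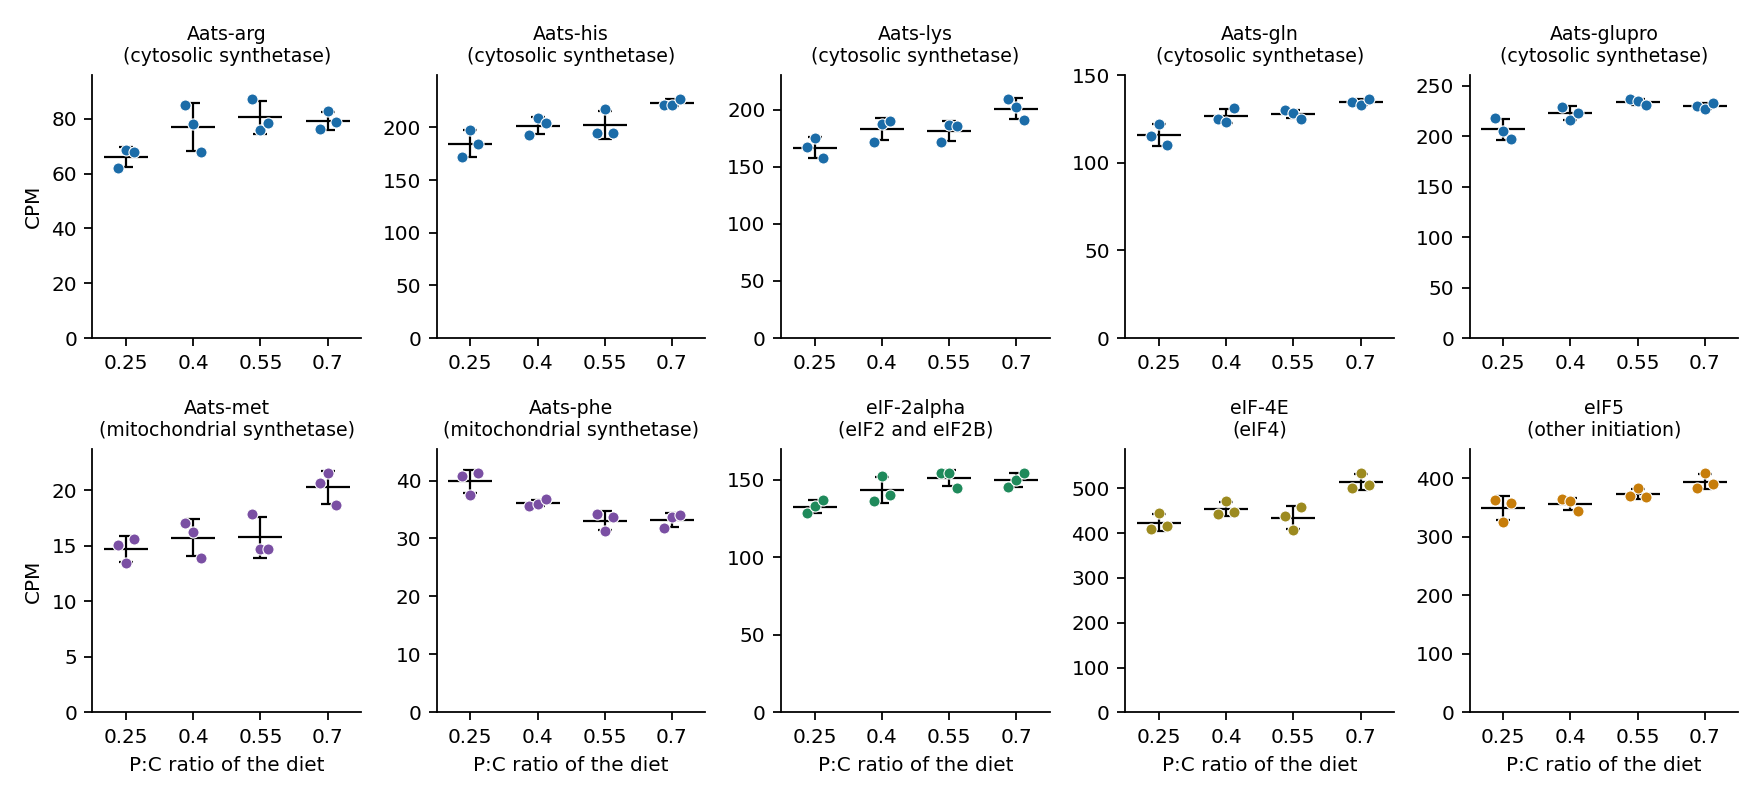
CPM (y axis, from 0) in every sample of the 10 members other than Ef1alpha100E whose slope had an adjusted p under 0.05, by P:C ratio of the diet (x axis), with the mean and SD of 3 samples in black. Aats-met, eIF-4E, eIF5, Aats-his, Aats-gln and Aats-lys have their 3 samples at 0.7 above all others, and Aats-phe has its 3 samples at 0.25 above all others.

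The 5 elongation factors held 65.1% of the summed CPM of the members, and 1 of them was called in a pair of diets or along the diets. Ef1alpha48D (eEF1alpha1), the main carrier of loaded tRNAs, took 38.2% of the summed CPM of the members and 1.2% of all counts, and EF2 took 18.2% of the members' sum. Ef1alpha48D, on chromosome 2R from 11891135 to 11895762 on the forward strand, had 12082 ± 498, 11998 ± 411, 12350.3 ± 765 and 11542 ± 772 CPM (SD, n = 3) in order of rising P:C ratio, with a slope of -0.10 (adjusted p = 0.594). EF2 had a slope of -0.14 (adjusted p = 0.432), and the eEF1 exchange subunits Ef1beta and Ef1gamma had -0.12 (adjusted p = 0.553) and -0.02 (adjusted p = 0.894). These 4 estimates lay below 0 with TMM and with DESeq2's size factors and above 0 with scaling by library size alone, so that their direction depends on the scaling, while under each scaling they lay below the median of all tested transcripts. Under all 3 scalings 0 of the 4 were called.

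Ef1alpha100E (eEF1alpha2), the second gene for the same factor, was the one member called in a pair of diets. It lies on chromosome 3R from 31738468 to 31743306 on the forward strand, in 5 exons, and overlaps no other transcript of the table. In mammals the second eEF1A form is found in muscle and neurons. In flies at a P:C ratio of 0.25 it had 101, 95 and 106 CPM. On the control diet it had 64.9, 55 and 69.3 CPM, at 0.55 66.1, 55.3 and 54.6 CPM and at 0.7 50.3, 38.2 and 52.2 CPM. The 0.25 samples lay above all 9 others, the 0.7 samples lay below all 9 others, and the control and the 0.55 diet overlapped.

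Expression of Ef1alpha100E was 101 ± 5.43 CPM at 0.25 and 63.1 ± 7.32 CPM at 0.4 (SD, n = 3), a log2 fold change of 0.68 (SE 0.10, adjusted p = 0.0277) by edgeR. At 0.55 against 0.4 the log2 fold change was -0.10 (SE 0.12, adjusted p = 1), and at 0.7 against 0.4 it was -0.44 (SE 0.14, adjusted p = 0.0643), under the 1.5-fold minimum. At 0.7 against 0.25, with 46.9 ± 7.6 and 101 ± 5.43 CPM, it was -1.13 (SE 0.12, adjusted p = 0.00052). The slope was -2.31 (SE 0.31, adjusted p = 0.000319), a fall by 51.4% over the range of the diets. The slope and the comparison of 0.7 with 0.25 passed under each alternative and without each sample. The comparison of 0.25 with 0.4 passed under each other setting that was tried, with log2 fold changes of 0.65 to 0.68, and lost its call in 5 of 6 fits without one sample. The adjusted p was 0.0619 without replicate 1 and 0.157 without replicate 3 of the 0.25 diet, and 0.0950, 0.0548 and 0.0809 without replicates 1, 2 and 3 of the control diet.

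The 2 genes for eEF1alpha thus differed in course. Ef1alpha48D was 109.7 to 127 times Ef1alpha100E in CPM at 0.25, 177 to 222 times at 0.4, 196 to 229 times at 0.55 and 227 to 284 times at 0.7. The log2 ratio of Ef1alpha100E to Ef1alpha48D had a slope of -2.19 per unit of P:C ratio (two-sided permutation test over the 12 samples, p = 4e-05, adjusted p = 0.00012 over the 3 pairs of paralogs), a test that uses the same counts as the slope of Ef1alpha100E. The muscle markers also fell along the diets, with a median slope of -3.33 over 15, and the neuronal markers with a median of -2.43 over 6. Whether Ef1alpha100E falls with these tissues was not tested.

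**Figure D4:**
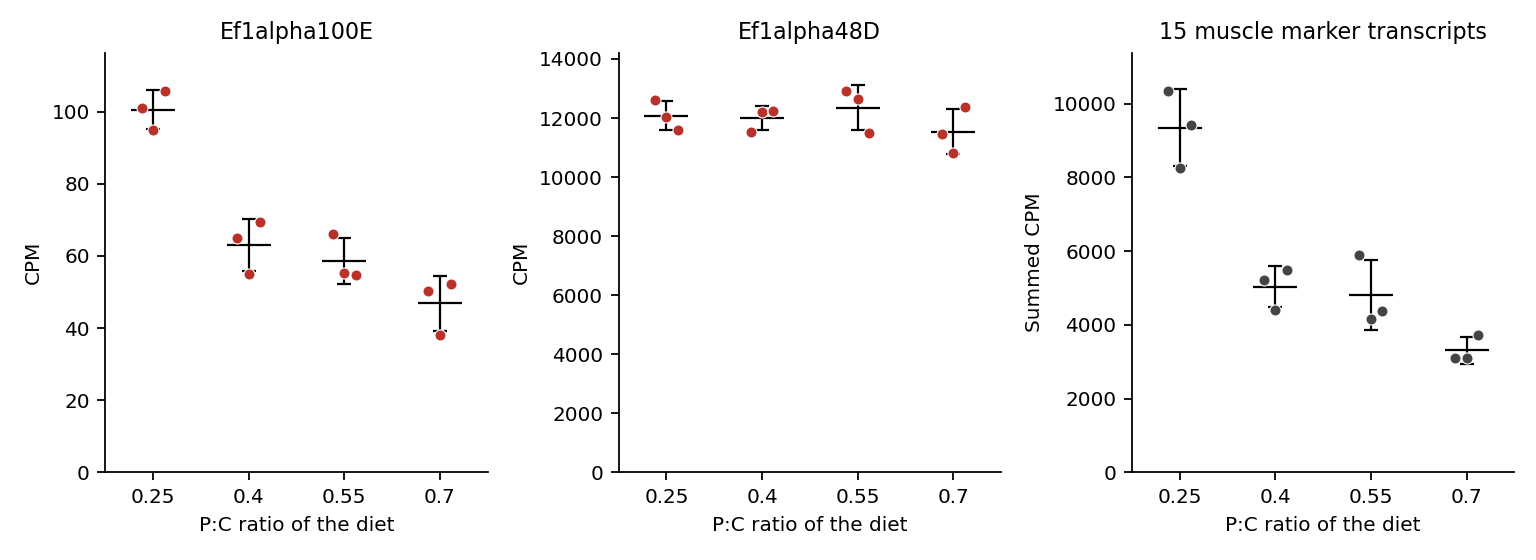
CPM in every sample of Ef1alpha100E and Ef1alpha48D, and the summed CPM of the 15 muscle markers (y axes, from 0), by P:C ratio of the diet (x axes), with the mean and SD of 3 samples in black. Ef1alpha100E and the muscle markers are highest at 0.25 in all 3 samples, and Ef1alpha48D lies between 10824 and 12926 CPM.

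The release factor eRF1, which ends translation at stop codons, had overlapping samples between neighbouring diets, with 295 ± 1.61, 309 ± 11.7, 299 ± 16.1 and 303 ± 3.48 CPM (SD, n = 3) in order of rising P:C ratio and a slope of 0.05 (adjusted p = 0.778).

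Levels were compared between members as mean CPM per kilobase of coding length over the 12 samples, with lengths from the annotation for 53 of 54 members, Ef1alpha48D being the one without a match. The cytosolic synthetases lay between 32.4 (Aats-cys) and 120.0 CPM per kb (Aats-his), and the mitochondrial ones between 9.52 (Aats-met) and 26.5 (Aats-pro), so that these 2 sets did not overlap, which also held per kilobase of exon. The annotated coding length of Aats-pro is 369 bases in 1517 bases of exon, and per kilobase of exon Aats-phe was highest of the 7 with 23.3 CPM per kb and Aats-pro had 6.45. The 5 eIF3 subunits lay close together, at 176 to 328 CPM per kb, with eIF3-S9 at the top. eIF-2alpha, eIF-2beta and eIF-2gamma had 141, 254 and 193 CPM per kb, and the 5 eIF2B subunits between 22.7 and 49. At the top of the eIF4 group were eIF-4a with 1393 and eIF-4E with 587 CPM per kb, and its scaffold eIF4G had 133. The highest members with a coding length were eIF-5A with 2350.0 and EF2 with 2249 CPM per kb, against 48.6 for Ef1alpha100E and 225 for eRF1. Per kilobase of exon the order of the first 2 turned, with 1893 for EF2 and 1501 for eIF-5A.

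**Figure D5:**
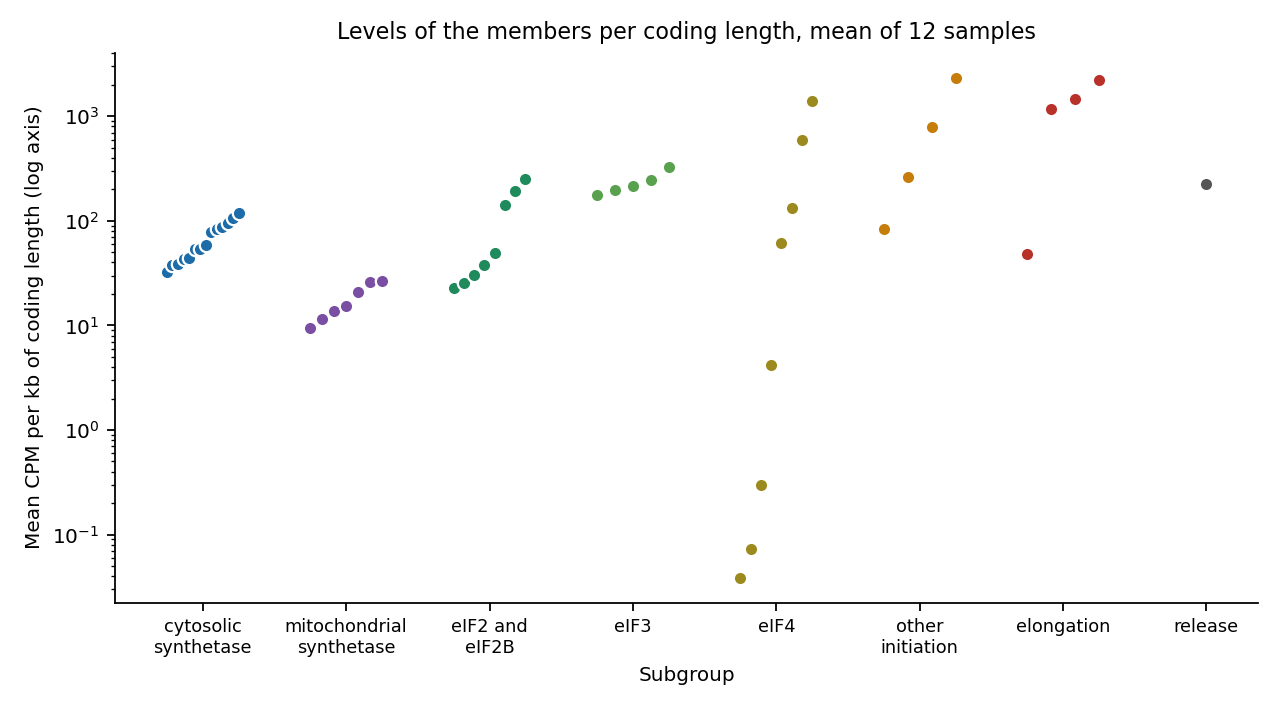
Mean CPM per kilobase of coding length over the 12 samples (y axis, log scale) of the 51 members with a coding length and at least 1 count, by subgroup (x axis). The mitochondrial synthetases lie below the cytosolic ones, and 3 of the eIF4E paralogs lie under 1 CPM per kb.

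The same enzymes and factors also appear in the table under other names, and these were collected from current gene symbols after the table was seen. Of 5 cytosolic synthetase genes with other names, 4 (80%) rose with the P:C ratio and 0 fell, with a median slope of 0.45. Of all tested transcripts 17.1% rose and 19.6% fell. They were MetRS (CG15100), LeuRS (CG33123) and both subunits of the cytosolic phenylalanyl enzyme, alpha-PheRS (CG2263) and beta-PheRS (CG5706). MetRS had 95.7, 90.3 and 91.9 CPM at 0.25, 101, 100.2 and 86.8 at 0.4, 96.2, 109 and 107 at 0.55 and 105, 115 and 104 at 0.7, so that all samples at 0.7 lay above those at 0.25 and 0.4 and overlapped those at 0.55. Their slopes were 0.53 (adjusted p = 0.020), 0.45 (adjusted p = 0.0258), 0.45 (adjusted p = 0.0258) and 0.46 (adjusted p = 0.025), and that of SerRS (CG17259) was 0.16 (adjusted p = 0.35). Phenylalanyl enzymes of the 2 compartments thus had slopes of opposite sign, 0.45 and 0.46 in the cytosol and -0.60 for Aats-phe, all 3 with an adjusted p under 0.05. Of 7 further mitochondrial synthetases 2 (28.6%) rose, against 17.1% of all tested transcripts. They were ValRS-m with 0.91 (adjusted p = 0.0479) and TrpRS-m with 0.69 (adjusted p = 0.0487). With DESeq2's size factors 0 of these 7 were called, where 13.8% of all tested transcripts rose, and by DESeq2 also 0. Without the sample with male transcripts 0 were called, where 14.4% of all tested transcripts rose. The adjusted p of ValRS-m and TrpRS-m were then 0.0636 and 0.0600. The 4 cytosolic genes kept an adjusted p under 0.05 without that sample, at 0.0293 to 0.0365. Of 20 other initiation, elongation and release factors 16 were tested, and their median slope was 0.06. By edgeR with TMM 0 were called, where 17.1% of all tested transcripts rose and 19.6% fell. With library size alone 2 rose, against 22.1% of all tested transcripts. Without the sample with male transcripts 1 rose, against 14.4%. By DESeq2 1 rose, and the share of all tested transcripts by DESeq2 was not computed.

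Genes that control translation were taken from a list of 50, of which 40 were found and tested. Along the diets 6 (15%) rose and 1 (2.5%) fell, against 17.1% and 19.6% of all tested transcripts, and the median slope was -0.07, against 0.05 for all tested transcripts. Thor (4E-BP), the inhibitor that binds eIF-4E and is held back by Tor, had 118, 119 and 148 CPM at 0.7 and 202, 172 and 193 CPM at 0.25. The 2 diets did not overlap, with a log2 fold change of -0.58 (SE 0.10, adjusted p = 0.00494), just under 1.5-fold. The course between was uneven, with 131 ± 21.5 CPM at 0.4 and 162 ± 43.8 at 0.55 (SD, n = 3), and the slope was -0.93 (adjusted p = 0.0964). 4E-T, which binds eIF-4E in stored mRNA, had the smallest slope p of the list, 0.60 (SE 0.13, adjusted p = 0.00582), with 117 ± 5.43, 124 ± 5.9, 127 ± 5.84 and 142 ± 5.09 CPM (SD, n = 3) in order of rising P:C ratio. Tsc1, an inhibitor upstream of Tor, had a slope of 0.66 (adjusted p = 0.026), and Rheb, the activator it acts on, one of -0.46 (adjusted p = 0.0341). REPTOR-BP, a partner of a transcription factor that Tor restrains, had -0.92 (adjusted p = 0.0502). Tor itself had -0.07 (adjusted p = 0.767) and S6k, one of its targets, -0.13 (adjusted p = 0.528).

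Of the kinases that phosphorylate eIF-2alpha, Gcn2, which senses uncharged tRNA, had a slope of 0.27 (adjusted p = 0.335) and PEK, which acts in the endoplasmic reticulum, one of 0.39 (adjusted p = 0.163). crc, the fly ATF4 that is translated more when eIF-2alpha is phosphorylated and drives synthetase genes, had 476 ± 51.3 CPM at 0.7 and 576 ± 31.9 CPM at 0.25 (SD, n = 3), with a log2 fold change of -0.30 (SE 0.09, adjusted p = 0.0336) and a slope of -0.55 (adjusted p = 0.0617). The other 4 rising genes of the list, named after their values were seen, were the initiation factor relative NAT1, the amino acid transporters slif and mnd, and the stress sensor Atf6, with slopes of 0.45, 0.55, 0.38 and 0.50. With DESeq2's size factors 3 of the list rose and 4 fell, against 13.8% and 20.2% of all tested transcripts. By DESeq2 6 rose and 6 fell, and the share of all tested transcripts by DESeq2 was not computed. Without the sample with male transcripts 3 rose (4E-T, Tsc1 and NAT1) and 1 fell (Rheb), against 14.4% and 18.1% of all tested transcripts. The 90 cytoplasmic ribosomal protein transcripts, as a comparison, had a median slope of -0.14 over 84 tested, with 9 estimates above 0. Called were 1 (1.19%) in each direction, against 17.1% and 19.6% of all tested transcripts. With scaling by library size alone their median was 0.00 and 42 estimates lay above 0, where the median of all tested transcripts was 0.19.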

How the data were processed

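Counts of 12 samples were analysed, 3 per diet, with diet and replicate number taken from the sample labels. The authors removed adapters with Trim Galore, mapped the reads to dm6 using hisat2 and quantified transcripts in Seqmonk. The deposited values are whole-number counts with neither normalization nor a filter. Whether counting used the strand is not given in the sources used here. Of the 54 members 20 overlap another transcript, each on the opposite strand, so that their reads may be shared. Along the diets 5 of these 20 rose (Aats-his, Aats-gln, Aats-glupro, Aats-met and eIF-2alpha), and 4 of the 29 tested members without an overlap. Of all tested transcripts 17.1% rose. Names, coordinates and strands are those of the table. Lengths and current symbols come from the BDGP6 annotation, in which 14550 of the 15448 transcripts (94.2%) had the same ends and strand. No column of other samples was present.

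Tests used edgeR 4.0.16 in R 4.3.3 (TMM, filterByExpr, quasi-likelihood), fitted to all transcripts with Benjamini-Hochberg adjustment. Each pair of diets was fitted on its own 6 samples, and the slope on all 12. The 4 pairs share samples. Standard errors were the estimate divided by the square root of F, and the fits were tested on simulated data. Paralog ratios were tested with 100000 permutations in scipy 1.17.1, on the log2 ratio of TMM-scaled CPM without a prior count, and figures were drawn with matplotlib 3.10.9. Alternatives were DESeq2 1.42.0, its size factors in edgeR, library size alone, no low-count filter, a minimum of 10 counts per sample, one joint fit of the 12 samples, dropping the fold-change minimum, the rank of the diet, a replicate block, and leaving out each sample. Named were the 3 members with the smallest slope p in each direction and the highest level per coding length in each subgroup, the untested members, paralogs, and from the list of control genes Thor, crc, Gcn2, PEK, Tor, S6k and the 2 smallest slope p in each direction. The members, lists and rules were chosen with earlier results of these data known, and the sets of genes with other names, the paralog ratios, the scaling of subgroups and the fits of lists without replicate 3 of the 0.55 diet were added after the table was seen. Samples are separate pools of flies from one population, so p-values measure the spread between pools.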

Additional observations from a re-analysis of the deposited data

How the results depend on the processing

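The member counts and medians were recomputed under each alternative. No called member changed sign. The member median at 0.55 against 0.4, 0.015 with TMM, was -0.011 with library size alone. That at 0.7 against 0.4, 0.0024 with TMM, was -0.0027 with no low-count filter, -0.0026 with at least 10 counts per sample and -0.019 to 0.0095 without single samples, so neither has a stable direction. Scaling by library size alone moved the median of all transcripts by 0.10 between 0.7 and 0.25 and by 0.15 for the slope. It gave member medians of 0.073 at 0.7 against 0.4 (0.00 with TMM), 0.15 at 0.7 against 0.25 (0.05 with TMM) and 0.32 for the slope (0.18 with TMM), and 15 rising and 1 falling member (9 and 2 with TMM). Dropping the 1.5-fold minimum gave 7 higher and 2 lower members at 0.7 against 0.25, against 0 and 1 with it. DESeq2 gave 9 rising and 3 falling members for the slope, and its share of all tested transcripts was not computed.

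When single samples were left out, members called higher at 0.25 against 0.4 numbered 0 to 1, the median at 0.55 against 0.4 was 0.00016 to 0.051, that at 0.7 against 0.25 was 0.041 to 0.081, rising members numbered 2 to 10 and the median slope was 0.14 to 0.23. Of 339 recomputed values of single named members, 238 kept their side of the threshold, 101 lost their call and 0 changed sign.

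Same-numbered samples correlated in their deviations from the diet means at -0.337 to 0.342, with 4 of 18 above 0.1. No common pairing by number was seen, but deviations from means of 3 samples cannot exclude that some replicates were handled together. With a replicate block 7 members rose and 2 fell along the diets and the calls between pairs of diets were 1, 0, 0 and 1, as without it. The share of all tested transcripts with this block was not computed. Members at a few CPM, such as eIF-4B and Aats-pro, have wide errors at this depth, and the 5 untested eIF4E paralogs could not be compared between diets.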

Other observations

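A second list of translation genes, with the mitochondrial factors, the multisynthetase scaffold and the rescue factors, had 44 entries, of which 30 were found and 29 tested. By edgeR 4 (13.8%) rose along the diets and 1 fell, against 17.1% and 19.6% of all tested transcripts, and the median slope was 0.27. Scaled by library size alone, the list had 10 risers and 0 that fell, against 22.1% and 18.4% of all tested transcripts. The risers were MetRS and LeuRS, described above, the mitochondrial enzyme ValRS-m and the mitochondrial initiation factor mIF3, with slopes of 0.91 (adjusted p = 0.0479) and 0.97 (adjusted p = 0.0297). The one that fell was pix, the fly ABCE1 that splits ribosomes after termination, with a slope of -0.42 (adjusted p = 0.0425). Without replicate 3 of the 0.55 diet, the sample with male transcripts, 4 rose and 0 fell, against 14.4% and 18.1% of all tested transcripts. ValRS-m and pix then had adjusted p of 0.0636 and 0.0544, and the initiation factor eIF1 (CG17737) rose with an adjusted p of 0.0263.

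None of the other mitochondrial factors named here passed the test of edgeR, and whether they differ from each other was not tested. The elongation factors mEFG1 and mEFTs had slopes of 0.49 (adjusted p = 0.0718) and 0.37 (adjusted p = 0.0803), against -0.02 (adjusted p = 0.932) for mEFTu2 and -0.09 (adjusted p = 0.826) for the initiation factor mIF2. The 3 scaffold proteins of the cytosolic multisynthetase complex, AIMP1, AIMP2 and AIMP3, had slopes of 0.27, 0.24 and 0.24, none with an adjusted p under 0.05 by edgeR. The germline helicase vas had a slope of 0.62 (adjusted p = 0.0646), and its paralog bel, which is made in many tissues, one of 0.28 (adjusted p = 0.187).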
